A study of Mus musculus with 24 samples.

Results

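The transcripts described here belong to 10 genes of the transforming growth factor beta (TGF-beta) and bone morphogenetic protein (BMP) pathway. They are 5 ligand genes (Tgfb1, Tgfb2, Tgfb3, Bmp2 and Bmp4) and 5 genes that the pathway itself induces (Smad6, Smad7, Id2, Id3 and Skil). They were taken by symbol from the 52724 gene rows of a count table, and all 10 passed the filter on low counts with which 16018 genes were tested. RNA was sequenced from 24 libraries of whole mouse heart, 6 of each of 4 genotypes, with 3 libraries of every genotype in each of 2 batches. FKl/l hearts carried the floxed Fkbp1a gene and no Cre recombinase. MHC CRE Only hearts carried Cre under the α-myosin heavy chain (αMHC) promoter and no floxed allele. FKl/l MCK+ hearts carried the floxed gene with Cre under the muscle creatine kinase (MCK) promoter, and FKl/l MHC+ hearts the floxed gene with αMHC-driven Cre. The design text places αMHC-driven expression at embryonic day 9 and MCK-driven expression at day 13, with different levels of Cre. A genotype with MCK-driven Cre and no floxed allele was not analysed here, so for FKl/l MCK+ the effects of the deletion and of its Cre cannot be told apart. The labels give no age and no sex. They leave unsaid whether the libraries of a genotype are separate animals, and p-values therefore measure the spread between these libraries.

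Ligands of this family bind pairs of type I and type II receptors. TGF-beta ligands then signal mainly through SMAD2 and SMAD3, BMP ligands through SMAD1, SMAD5 and SMAD8, and both with SMAD4. Fkbp1a encodes FKBP12, a small immunophilin that also binds the intracellular part of type I receptors and keeps the unliganded receptor from being activated. Smad6, Smad7 and Skil are induced by the pathway and restrain it, while Id2 and Id3 are among the best known targets of BMP signalling. In the heart these ligands are known for their roles in valve and septum formation and, in the adult, in fibrosis.

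Library sizes ranged from 27799403 to 40412640 counts. Levels are counts-per-million values (CPM). Fkbp1a was at 130 ± 10.1 CPM in FKl/l, 122 ± 20.6 in MHC CRE Only, 65.1 ± 10.7 in FKl/l MCK+ and 59.1 ± 12.6 in FKl/l MHC+ (SD, n = 6 each). Both promoters drive Cre in muscle cells, and whole hearts also hold other cells. A library is named here by its genotype, batch and number. The library labelled MHC CRE Only 1-3 held Fkbp1a at 81.8 CPM, which goes against its label. Summed transcripts of 10 lung and airway markers reached 1164 CPM in library 2-3 of MHC CRE Only and 434.5 CPM in library 1-1 of FKl/l, compared with at most 80.6 CPM in FKl/l MHC+ and 31.0 CPM in FKl/l MCK+. Where a call of a member or of another pathway gene between genotypes was lost without these 3 libraries, the value without them is given. The cardiomyocyte markers were high in every library, with sums from 55934 to 67718 CPM.

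Tgfb2 was the only member called in any genotype comparison, so the 250 bases before its annotated start are shown with those of Bmp4, the other ligand for which the log2 fold change between the 2 deletion genotypes was above 0.4 in size. RefSeq windows (GRCm38.p6) were at hand for 6 of the 10 members, Tgfb1, Tgfb2, Bmp4, Smad6, Id2 and Id3. Capitals mark the SMAD box (CAGAC or its complement GTCTG) and the E-box CACGTG, both searched on both strands, and positions are counted back from the start site.
Tgfb2, chr1:186705990-186706239, minus strand: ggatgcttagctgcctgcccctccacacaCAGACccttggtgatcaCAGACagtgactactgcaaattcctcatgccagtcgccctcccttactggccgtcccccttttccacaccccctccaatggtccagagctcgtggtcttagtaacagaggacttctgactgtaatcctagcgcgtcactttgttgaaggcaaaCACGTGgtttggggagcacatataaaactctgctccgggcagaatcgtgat
Bmp4, chr14:46390670-46390919, minus strand: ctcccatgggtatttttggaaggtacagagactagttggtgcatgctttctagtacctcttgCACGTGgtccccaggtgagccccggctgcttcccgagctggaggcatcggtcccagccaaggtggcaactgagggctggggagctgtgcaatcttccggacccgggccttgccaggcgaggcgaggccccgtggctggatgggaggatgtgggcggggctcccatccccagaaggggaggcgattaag
The Tgfb2 window held SMAD boxes at -221 and -204 and an E-box at -51. The Bmp4 window held an E-box at -188 and no SMAD box. SMAD boxes stood in 42.2% and this E-box in 6.02% of 32851 windows of the same length, so a SMAD box is common. Of the other 4 windows, that of Id3 held SMAD boxes at -167 and -68, and that of Id2 a GC-rich SMAD element (GGCGCC, in 9.59% of windows) at -231. The Id3 window (chr4:136143572-136143821) and the Id2 window (chr12:25096093-25096342) precede RefSeq starts. Both lie inside the gene spans given below, which are from another annotation. The palindromic element GTCTAGAC, in 0.167% of all windows, was in none of the 6. These matches describe the letters only.

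Levels of different genes were compared as CPM per kilobase of annotated exon, over the 24 libraries. Id3 was highest, at 18.1 ± 2.04, followed by Tgfb1 at 10.2 ± 1.30, Tgfb3 at 7.27 ± 1.05, Smad6 at 4.69 ± 0.557 and Id2 at 3.61 ± 0.760 (SD, n = 24). Smad7 was at 2.00 ± 0.318, Bmp4 at 1.29 ± 0.336, Tgfb2 at 1.28 ± 0.278, Skil at 0.955 ± 0.286 and Bmp2 at 0.523 ± 0.106. This order held between neighbours in at least 23 of 24 libraries, with 2 exceptions. Bmp4 was above Tgfb2 in 14 of 24 libraries, so these 2 ligands did not differ beyond their spread, and Tgfb2 was above Skil in 20 of 24. The lowest member, Bmp2, was counted 41 to 105 times per library and Tgfb1 1468 to 2729 times.

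Between genotypes, few of these transcripts moved. In FKl/l MHC+ against MHC CRE Only 1 of the 10 members passed the test, Tgfb2, which was higher, where 1.87% of all genes tested were called in this comparison. In FKl/l MHC+ against FKl/l MCK+ it was again Tgfb2 alone, where 2.15% of all genes were called. None of the 10 was called in FKl/l MHC+ against FKl/l (1.71% of all genes), in FKl/l MCK+ against FKl/l (0.0499%), in MHC CRE Only against FKl/l (0.0437%) or in both deletion genotypes against both controls (0.406%). In those 4 comparisons edgeR's unadjusted p was under 0.05 for 3, 2, 1 and 4 members, beside 14.7%, 5.24%, 12.9% and 9.16% of all genes. DESeq2 called none of the 10 there. The highest share of genes called, 2.15%, is less than 1 gene in 10, so calls of 0 and 1 member lie near the background. The median log2 fold change of the 10 members lay between -0.10 and 0.03 in the 6 comparisons, beside medians of all genes within 0.02 of 0. The comparisons share libraries and are not independent of each other.

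**Figure D1:**
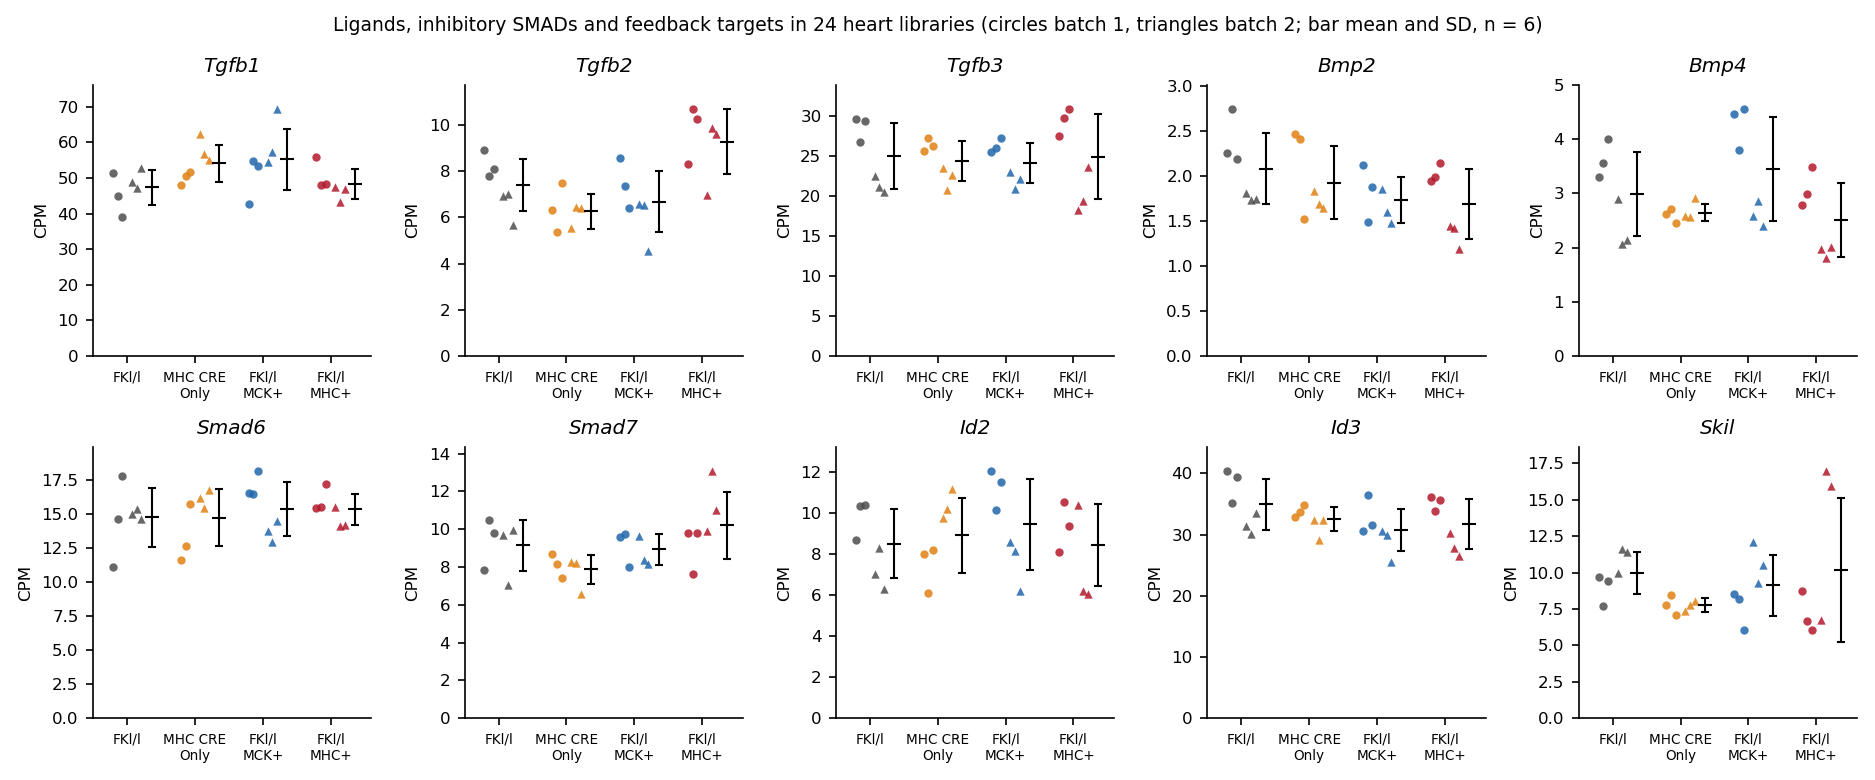
Level of each of the 10 genes in CPM (vertical axis, linear and starting at 0) by genotype (horizontal axis). Each point is 1 library, with circles for batch 1 and triangles for batch 2, and the bars give the mean and SD of 6 libraries. Tgfb2 lies higher in FKl/l MHC+ (6.99 to 10.7 CPM) than in MHC CRE Only (5.35 to 7.50 CPM) with an overlap, Tgfb3 splits by batch in every genotype, and Skil is high in 2 libraries of FKl/l MHC+.

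Tgfb2 (ENSMUSG00000039239, chromosome 1, 186622792 to 186705989 on GRCm38, minus strand) encodes the TGF-beta isoform that is best known in the heart for its part in cushion and septum formation. Its lowest, median and highest levels were 6.99, 9.73 and 10.7 CPM in FKl/l MHC+, 5.35, 6.34 and 7.50 in MHC CRE Only, 4.55, 6.58 and 8.58 in FKl/l MCK+, and 5.69, 7.41 and 8.92 in FKl/l. In FKl/l MHC+, 5 of the 6 libraries were above every MHC CRE Only library, and only library 2-1, at 6.99 CPM, overlapped them. The mean was 9.28 ± 1.39 CPM in FKl/l MHC+ and 6.25 ± 0.761 in MHC CRE Only (SD, n = 6 each), a log2 fold change of 0.56 (SE 0.113, 95% interval 0.33 to 0.80, 1.48-fold, adjusted p = 0.0074 in the quasi-likelihood test of edgeR). Against FKl/l MCK+, at 6.67 ± 1.32 CPM, it was 0.48 (SE 0.113, 1.40-fold, adjusted p = 0.0217). Against FKl/l, at 7.41 ± 1.12 CPM, the log2 fold change was 0.33 (SE 0.112, interval 0.10 to 0.56), which did not pass (adjusted p = 0.132). The value against FKl/l was thus the smallest of the 3, though the differences between these values were not tested. MHC CRE Only was itself at -0.23 against FKl/l (adjusted p = 0.388), and FKl/l MCK+ at -0.15 (adjusted p = 0.999). The direction was the same in both batches. Against MHC CRE Only the value was 0.65 in batch 1 and 0.51 in batch 2, and against FKl/l MCK+ it was 0.43 and 0.58, with neither batch alone passing the test. Of the 2 calls, that against MHC CRE Only was the one that leaving out libraries did not end. It held in all 24 fits that left out 1 library (adjusted p up to 0.0295) and without the 3 libraries named above (0.64, adjusted p = 0.00968). It missed the threshold with no batch term at a log2 fold change of 0.57 (adjusted p = 0.0535), and with a term for the level of Y-linked transcripts at 0.45 (adjusted p = 0.090). It also did not pass against a minimum fold of 1.2 (adjusted p = 0.325). The call against FKl/l MCK+ did not survive leaving out any 1 of FKl/l MCK+ 1-3 and 2-3 and FKl/l MHC+ 1-2, 1-3 and 2-3 (adjusted p up to 0.0662). With the Y-linked term that call held (0.44, adjusted p = 0.0363), while with no batch term it did not (0.47, adjusted p = 0.0928), nor against a minimum fold of 1.2 (adjusted p = 0.711). In the authors' deposited tables, which test against a minimum fold, Tgfb2 had log2 fold changes of 0.57 against MHC CRE Only and 0.49 against MCK, with unadjusted p-values of 0.00634 and 0.0258 and an adjusted p of 1 in both.

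Among the 3 TGF-beta ligands, taken per kilobase, Tgfb2 made up 8.69 ± 1.32% in FKl/l MHC+ (6.94 to 10.6%), 5.69 ± 0.759% in MHC CRE Only (4.73 to 6.71%), 6.06 ± 1.53% in FKl/l MCK+ (3.73 to 8.49%) and 7.07 ± 0.789% in FKl/l (5.62 to 7.82%; SD, n = 6 each). The lowest FKl/l MHC+ library was thus just above the highest MHC CRE Only library. This share uses the same counts as the test above and adds no test of its own.

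Some markers of other cell types also differed between FKl/l MHC+ and other genotypes. In whole hearts fewer cells of a type and less RNA per cell cannot be told apart. Of 10 endothelial markers, 6 were lower in FKl/l MHC+ than in FKl/l MCK+, and 1, Robo4, was lower than in MHC CRE Only and than in FKl/l. Their summed level ran from 693 to 889 CPM in FKl/l MHC+, 806 to 958 in MHC CRE Only, 866 to 1102 in FKl/l MCK+ and 768 to 1017 in FKl/l, and no marker was at 0. Of 10 smooth muscle and pericyte markers, Pdgfrb was lower than in MHC CRE Only (-0.33, adjusted p = 0.00183) and than in FKl/l MCK+ (-0.36, adjusted p = 0.00079), and Mcam was lower than in FKl/l MCK+ (-0.27, adjusted p = 0.0499). Of 10 fibroblast markers, Gsn and Dpt were lower than in FKl/l MCK+ (-0.41 and -0.36) and none was called against MHC CRE Only. The macrophage marker Mrc1 and the valve marker Sox9 were higher than in MHC CRE Only (0.32 and 0.64, adjusted p = 0.0464 and 0.0469). In that comparison 8 of 10 macrophage markers had a log2 fold change above 0 (median 0.14). Of 10 epicardial and valve markers only 4 did (median -0.15), so most of that list did not go with Sox9. None of 24 immediate early genes was called against MHC CRE Only and 1, Ier3, was higher than in FKl/l MCK+. The log2 fold changes of that list were above 0 for 22 and 23 of the 24, with medians of 0.37 and 0.43. Over the 24 libraries, with batch means removed, Tgfb2 ran against the endothelial sum (r = -0.61, rho = -0.55, -0.43 within batch 1 and -0.84 within batch 2). This was less so without the 2 libraries farthest from its median (r = -0.48). For the other sums r was -0.45 (fibroblast), 0.36 (immediate early), -0.29 (cardiomyocyte) and -0.02 (lung and airway). Tgfb2 ran with the summed level of 4 Y-linked genes (r = 0.63, rho = 0.68, and 0.54 without 2 libraries). Of these 4, Ddx3y was higher in FKl/l MHC+ than in MHC CRE Only (log2 fold change 0.49, adjusted p = 0.00701). Genotype means were left in, so these correlations also carry the group differences given above. Y-linked transcripts were present in every library, with sums from 53.0 to 96.3 CPM. Of these, only the Y-linked level was put into the fit, with the values given above, and the part of the other markers in the Tgfb2 result was not tested. The genes most like Tgfb2 over the 24 libraries were AI987944 (r = 0.80), Psip1 (0.78) and Usp16 (0.78), among 9639 genes with a mean of at least 5 CPM.

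**Figure D2:**
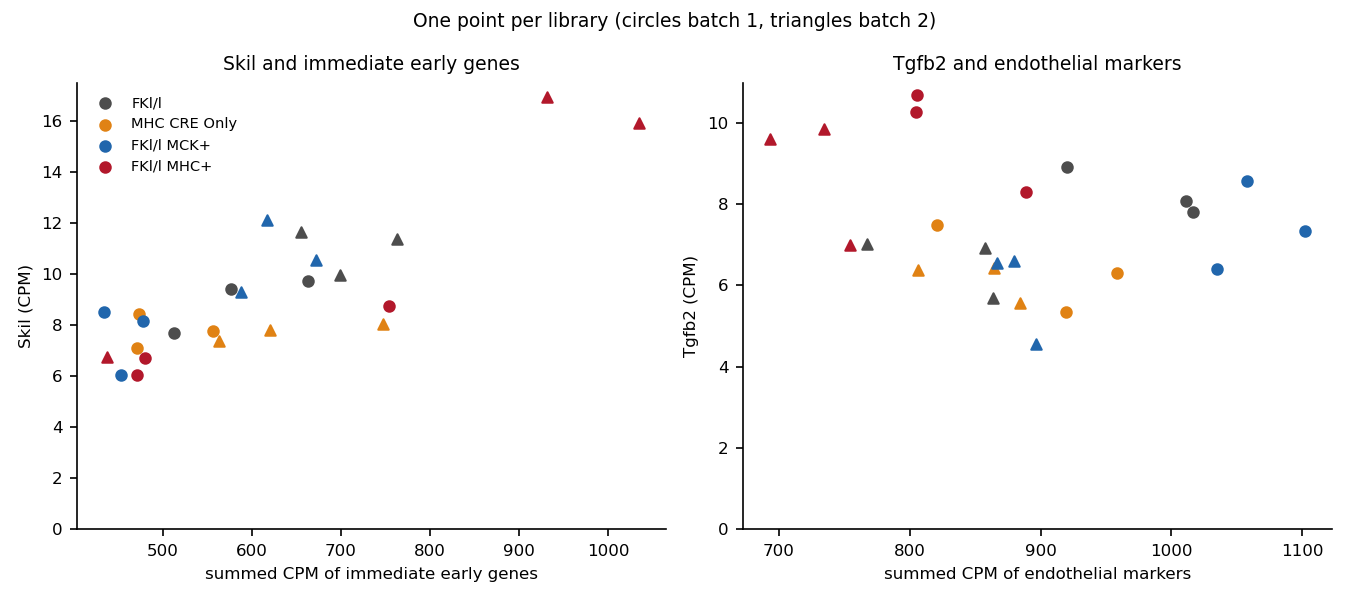
Skil against the summed CPM of 24 immediate early genes (left) and Tgfb2 against the summed CPM of 10 endothelial markers (right), with 1 point per library, circles for batch 1 and triangles for batch 2, on linear axes. The 2 libraries with Skil at 15.9 and 16.9 CPM have the 2 highest sums of immediate early genes, and 4 FKl/l MHC+ libraries with Tgfb2 above 9 CPM have endothelial sums between 693 and 806 CPM.

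Tgfb1 (ENSMUSG00000002603, chromosome 7, 25687002 to 25705077) encodes the isoform most studied in fibrosis. Levels ran (lowest, median and highest) at 39.1, 48.1 and 52.7 CPM in FKl/l, 48.1, 53.3 and 62.4 in MHC CRE Only, 42.6, 54.5 and 69.3 in FKl/l MCK+, and 43.1, 47.8 and 55.8 in FKl/l MHC+. The groups overlapped throughout. The log2 fold changes were 0.22 in FKl/l MCK+ against FKl/l (SE 0.0840, adjusted p = 0.825), 0.19 in MHC CRE Only against FKl/l (SE 0.0840, adjusted p = 0.328) and 0.03 in FKl/l MHC+ against FKl/l (SE 0.0841, interval -0.14 to 0.21). FKl/l MHC+ against FKl/l MCK+ differed by -0.19 (adjusted p = 0.282), but by 0.06 in batch 1 and by -0.39 in batch 2, where it passed the test alone (adjusted p = 0.0266). Against MHC CRE Only it was -0.16, at 0.05 in batch 1 and -0.35 in batch 2 (adjusted p = 0.0204 in batch 2 alone). The difference between the batches did not pass edgeR's test of genotype by batch interaction against FKl/l MCK+ (adjusted p = 0.171) or MHC CRE Only (adjusted p = 0.177). Across libraries with batch means removed, Tgfb1 and Tgfb2 ran in opposite directions (r = -0.59 over 24 libraries, -0.22 within batch 1 and -0.87 within batch 2). Tgfb1 also ran against the Y-linked sum (r = -0.74, rho = -0.73, and -0.66 without 2 libraries). The libraries share depth scaling and genotype groups, and these correlations are descriptions. The genes most like Tgfb1 were Micall2 (r = 0.86), Vtn (0.84) and Dchs1 (0.84).

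Tgfb3 (ENSMUSG00000021253, chromosome 12, 86056745 to 86079041, minus strand), the third isoform, hardly differed between genotypes. Its median level was 24.7 CPM in FKl/l, 24.5 in MHC CRE Only, 24.3 in FKl/l MCK+ and 25.6 in FKl/l MHC+, with all libraries between 18.3 and 30.9 CPM. The log2 fold changes between genotypes ran from -0.04 to 0.03, with standard errors of about 0.07. In FKl/l MHC+ against FKl/l the 95% interval was -0.15 to 0.13. Tgfb3 lies opposite Ttll5, with no shared exon bases, and the strand setting of the counting is not given in the sources used here.

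Bmp2 (ENSMUSG00000027358, chromosome 2, 133552159 to 133562885) is a BMP ligand known for its part in valve formation. The lowest, median and highest Bmp2 levels were 1.73, 2.00 and 2.74 CPM in FKl/l, 1.52, 1.76 and 2.47 in MHC CRE Only, 1.48, 1.73 and 2.12 in FKl/l MCK+, and 1.19, 1.70 and 2.15 in FKl/l MHC+. The mean was lowest in the 2 deletion genotypes, but the libraries overlapped. FKl/l MHC+ against FKl/l gave -0.31 (SE 0.145, interval -0.60 to -0.01, adjusted p = 0.316) and both deletions against both controls -0.22 (SE 0.102, adjusted p = 0.504).

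Bmp4 (ENSMUSG00000021835, chromosome 14, 46383520 to 46390669, minus strand) is a BMP ligand made in the outflow tract and by vessel and stromal cells. The lowest, median and highest Bmp4 levels were 2.39, 3.33 and 4.55 CPM in FKl/l MCK+, 1.80, 2.40 and 3.49 in FKl/l MHC+, 2.06, 3.10 and 3.99 in FKl/l, and 2.45, 2.60 and 2.91 in MHC CRE Only. Over its 6 libraries MHC CRE Only had the narrowest spread, with a coefficient of variation of 5.94%, against 27.8% in FKl/l MCK+. This spread includes the difference between batches. In FKl/l MCK+ Bmp4 was at 4.27 ± 0.410 CPM in batch 1 and 2.61 ± 0.237 in batch 2. In MHC CRE Only it was at 2.60 ± 0.132 and 2.69 ± 0.194 CPM. FKl/l MHC+ against FKl/l MCK+ gave a log2 fold change of -0.45 (SE 0.139, interval -0.74 to -0.17), which missed the threshold (adjusted p = 0.0848). No other genotype comparison of Bmp4 exceeded 0.26 in size. Bmp4 ran with the endothelial sum over the 24 libraries (r = 0.68, rho = 0.69 with batch means removed, 0.66 within batch 1 and 0.70 within batch 2, and 0.74 without 2 libraries). It also ran with the sum of 10 fibroblast markers (r = 0.54, rho = 0.65, and 0.67 without 2 libraries), of which 2, Dpt and Gsn, were lower in FKl/l MHC+ than in FKl/l MCK+. The part of these markers in the Bmp4 values was not tested. The genes most like Bmp4 were Elk3 (r = 0.82), L3mbtl3 (0.81) and Afdn (0.78).

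**Figure D3:**
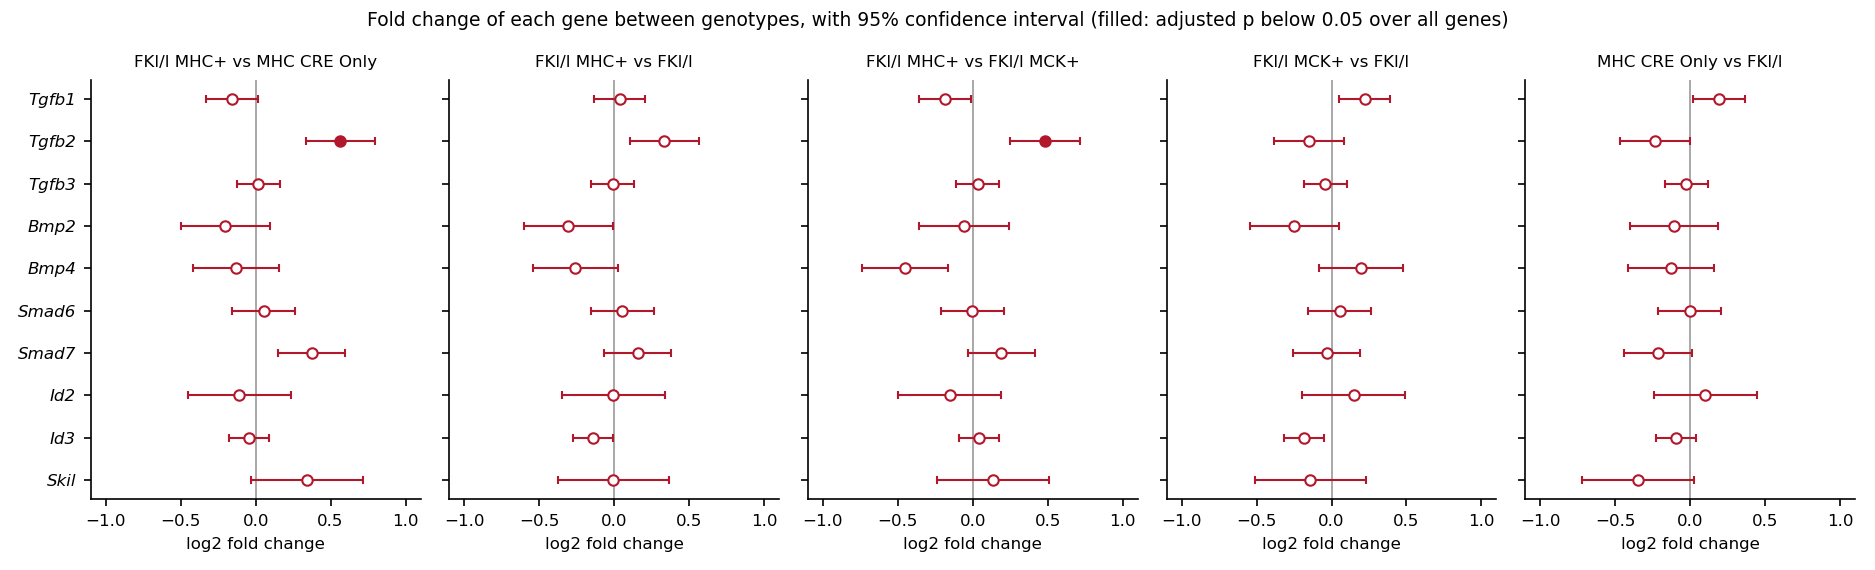
Log2 fold change of each gene (horizontal axis) in 5 genotype comparisons, with the 95% confidence interval of the fit over 24 libraries. Filled points passed the test over all genes. Tgfb2 is the only filled point, at 0.56 against MHC CRE Only and 0.48 against FKl/l MCK+.

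Smad6 and Smad7 encode the inhibitory SMADs, which compete with the signalling SMADs for receptors and lead receptors to degradation. SMAD6 acts mainly on BMP signalling and SMAD7 on both branches. Smad6 (ENSMUSG00000036867, chromosome 9, 63953076 to 64022059, minus strand) had medians of 14.8 CPM in FKl/l, 15.6 in MHC CRE Only, 15.5 in FKl/l MCK+ and 15.5 in FKl/l MHC+, with all libraries between 11.1 and 18.1 CPM. The groups overlapped, and the log2 fold changes between genotypes ran from -0.003 to 0.06 with standard errors of 0.103 or less. The interval in FKl/l MHC+ against FKl/l was -0.16 to 0.26.

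Smad7 (ENSMUSG00000025880) followed the order of Tgfb2. Its lowest, median and highest levels were 7.64, 9.87 and 13.1 CPM in FKl/l MHC+, 6.57, 8.18 and 8.68 in MHC CRE Only, 8.03, 8.99 and 9.76 in FKl/l MCK+, and 7.07, 9.75 and 10.5 in FKl/l. FKl/l MHC+ held the highest library and MHC CRE Only the lowest, and the groups overlapped. FKl/l MHC+ against MHC CRE Only gave 0.37 (SE 0.110, interval 0.15 to 0.60, 1.29-fold), which missed edgeR's threshold (adjusted p = 0.0718). DESeq2 called it (adjusted p = 0.0247), as did edgeR without FKl/l MHC+ 1-2 (adjusted p = 0.0373). The difference was 0.20 in batch 1 and 0.55 in batch 2, where it passed alone (adjusted p = 0.0240), though edgeR's interaction test between the batches did not pass (adjusted p = 0.299). Without the 3 libraries named above it was 0.29 (adjusted p = 0.264). Against FKl/l and FKl/l MCK+ it was 0.16 and 0.19, neither of which passed, and the first was -0.01 in batch 1 alone. Over the 24 libraries Smad7 ran with Tgfb2 at r = 0.42 (0.14 within batch 1, 0.60 within batch 2) and with Skil at 0.49.

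Id2 and Id3 encode inhibitors of DNA binding, which pair with basic helix-loop-helix factors and block them. Id3 (ENSMUSG00000007872, chromosome 4, 136143497 to 136145755) had its lowest, median and highest levels at 30.0, 34.3 and 40.3 CPM in FKl/l, 29.1, 32.6 and 34.9 in MHC CRE Only, 25.5, 30.6 and 36.5 in FKl/l MCK+, and 26.6, 32.0 and 36.1 in FKl/l MHC+. Its mean was highest in FKl/l, at 34.9 ± 4.18 CPM, and the groups overlapped. It differed from FKl/l by -0.18 in FKl/l MCK+ (SE 0.0650, adjusted p = 0.812) and by -0.14 in FKl/l MHC+ (SE 0.0649, adjusted p = 0.293). Both deletions against both controls gave -0.11 (SE 0.0460, adjusted p = 0.437).

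Id2 (ENSMUSG00000020644, chromosome 12, 25093799 to 25097140, minus strand) had means of 8.49 ± 1.68 CPM in FKl/l, 8.89 ± 1.82 in MHC CRE Only, 9.43 ± 2.20 in FKl/l MCK+ and 8.43 ± 2.00 in FKl/l MHC+ (SD, n = 6 each). No genotype comparison exceeded 0.16 in size. The means hid a split by batch that went opposite ways. From batch 1 to batch 2 the mean went from 9.80 to 7.18 CPM in FKl/l, from 11.2 to 7.64 in FKl/l MCK+ and from 9.33 to 7.53 in FKl/l MHC+, but from 7.43 to 10.4 in MHC CRE Only. In FKl/l, FKl/l MCK+ and MHC CRE Only the 3 libraries of one batch did not overlap the 3 of the other. The difference between batches in the log2 fold change of MHC CRE Only against FKl/l was 0.93 (SE 0.242, n = 6 each), and the interaction test passed (adjusted p = 0.0298 by edgeR), where 5.57% of all genes tested passed it. Id2 was the only one of the 10 members to pass this test in any of the 6 comparisons. Without the 3 libraries named above the value was 1.02 (adjusted p = 0.138), and with 1 library left out it ran from 0.80 to 1.04. Leaving out 1 of MHC CRE Only 1-2, 1-3 and 2-3 or 1 of FKl/l 1-3, 2-1 and 2-3 ended the call (adjusted p up to 0.085). Bmp4 had a value of the same sign, 0.66 (adjusted p = 0.0885).

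Skil (ENSMUSG00000027660, chromosome 3, 31095058 to 31122577) encodes SnoN, a corepressor that binds SMADs at target genes and is degraded and then induced again when TGF-beta signals. Its lowest, median and highest levels were 6.03, 7.75 and 16.9 CPM in FKl/l MHC+, 7.09, 7.79 and 8.43 in MHC CRE Only, 6.06, 8.90 and 12.1 in FKl/l MCK+, and 7.70, 9.83 and 11.6 in FKl/l. Libraries 2-2 and 2-3 of FKl/l MHC+, at 16.9 and 15.9 CPM, lay above all others, and the other 4 of that genotype were between 6.03 and 8.76 CPM. The spread was therefore the widest of any member within a genotype, with a coefficient of variation of 48.5% in FKl/l MHC+ and 6.10% in MHC CRE Only. FKl/l MHC+ against MHC CRE Only gave 0.34 (SE 0.182, adjusted p = 0.373) and MHC CRE Only against FKl/l -0.35 (SE 0.181, adjusted p = 0.424). Neither direction was stable. The first was -0.08 in batch 1 alone and 0.76 in batch 2 alone, and the second was 0.04 with the Y-linked term. Immediate early genes, which are induced within minutes by many stimuli including handling of tissue, stood highest in the same 2 libraries, with sums over 24 genes of 931 and 1035 CPM. In the other 22 libraries the sum was at most 763 CPM. Skil ran with this sum over the 24 libraries (r = 0.75, rho = 0.67 with batch means removed, 0.59 within batch 1 and 0.82 within batch 2). The 2 libraries whose sums lay farthest from the median, with batch means removed, were FKl/l MHC+ 1-1 and 2-3. Without them r was 0.72, with library 2-2 of FKl/l MHC+ still included. The gene most like Skil was Fosl2 (r = 0.84), itself of the AP-1 family, followed by Cebpg (0.83) and Adamts1 (0.81). Id2 ran against Skil (r = -0.62, -0.24 within batch 1 and -0.81 within batch 2) and against the immediate early sum (r = -0.53). The part of handling in these values was not tested.

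More of the 10 members were called between the batches than between genotypes, and the same held for all genes. In batch 2 against batch 1, 6 of the 10 members passed the test, where 38.4% of all genes did. With 10 genes, a count of 6 is not far from that share. Tgfb2, Tgfb3, Bmp2, Bmp4 and Id3 were lower in batch 2 and Skil was higher, so that 4 of the 5 ligands were lower. Both batches hold 3 libraries of each genotype, and the labels do not say what the batches are. The median log2 fold change of the 10 members was -0.21, beside 0.02 for all genes. Tgfb3 was between 25.5 and 30.9 CPM in batch 1 and between 18.3 and 23.7 CPM in batch 2, with no overlap. Its log2 fold change was -0.36 (SE 0.0496, adjusted p = 1.78e-06), lower in all 4 genotypes by 0.24 to 0.52. Bmp4 changed by -0.49 (SE 0.0989, adjusted p = 0.000261), with lower means in 3 genotypes and a change of 0.05 in MHC CRE Only. Bmp2 changed by -0.37 (SE 0.103, adjusted p = 0.00521) and Id3 by -0.22 (SE 0.0460, adjusted p = 0.000284), both lower in each genotype. For Id3, as for Tgfb3, the 2 batches did not overlap within any genotype. In FKl/l MCK+ this rested on a narrow gap, with Id3 up to 30.55 CPM in batch 2 and from 30.57 CPM in batch 1. Over all 24 libraries the batches overlapped for Id3. How many of all genes split in this way was not counted. Tgfb2 changed by -0.22 (adjusted p = 0.0313), which did not pass when any 1 of 7 libraries was left out, namely FKl/l 1-1 and 2-3, FKl/l MCK+ 1-1 and 2-3, MHC CRE Only 1-3, and FKl/l MHC+ 1-2 and 2-1 (adjusted p up to 0.0662), nor without the 3 libraries named above (adjusted p = 0.0754). Skil rose by 0.42 (SE 0.128, adjusted p = 0.012), and the log2 ratio was 0.88 in FKl/l MHC+ and -0.01 in MHC CRE Only. Tgfb1 was at 0.12 (adjusted p = 0.118), a value that passed with the Y-linked term (adjusted p = 0.00845) and without FKl/l MHC+ 1-1 (0.042). Smad6 and Smad7 were at -0.03 and 0.03, and Id2 at -0.21 (adjusted p = 0.174). Of the marker lists, 5 of 10 cardiomyocyte markers were lower in batch 2 (Tnnt2 at -0.40 and Myl2 at -0.37 among them) and 3 higher (Atp2a2 at 0.56 among them). Of 10 endothelial markers 5 were lower, and of 24 immediate early genes 14 were higher and 1 lower. The part of these markers in the batch differences was not tested.

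**Figure D4:**
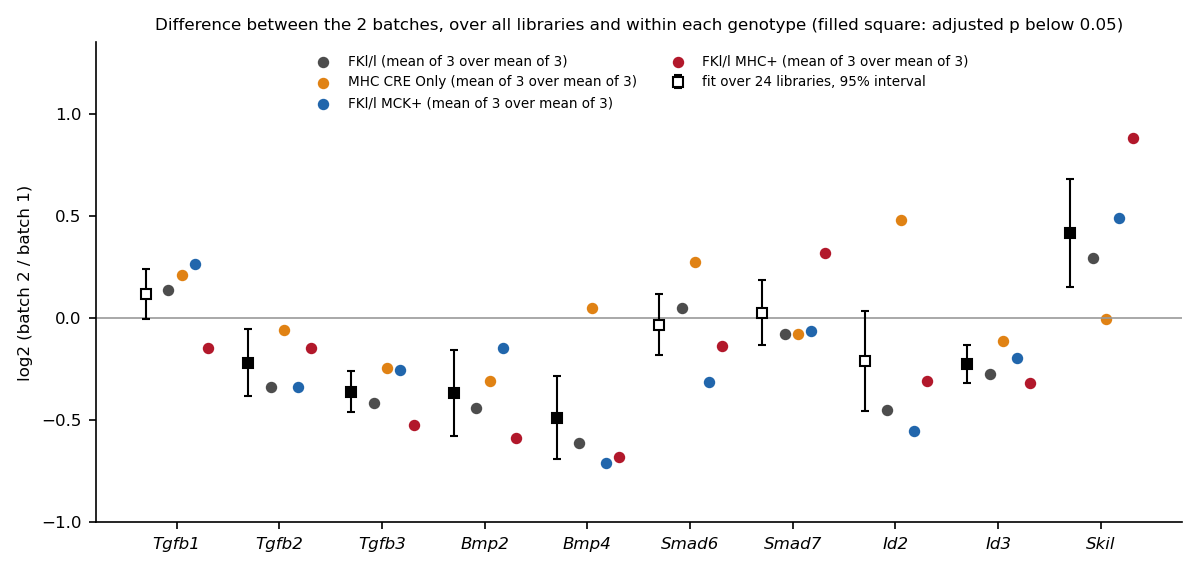
Log2 ratio of batch 2 over batch 1 for each gene. Squares are the fit over 24 libraries with its 95% interval (filled where the test was passed), and coloured points are the ratio of the means of 3 libraries within each genotype. Tgfb3, Bmp2, Id3 and Tgfb2 lie below 0 in all 4 genotypes, while Id2 is at 0.48 in MHC CRE Only and below 0 in the other 3.

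The other genes of the pathway were taken from lists written by role. Unless the batch is named, the calls described are those of the 6 genotype comparisons. Of all genes tested, 38.4% were called between the batches and at most 2.15% in any genotype comparison. Of 15 other family ligands tested, only Gdf15, a stress-induced cytokine, was called between genotypes, while Bmp5 was higher and Bmp6 and Inhba were lower in batch 2. Gdf15 was higher in FKl/l MHC+ than in FKl/l (means of 5.51 ± 4.33 and 1.39 ± 0.719 CPM, log2 fold change 2.00, adjusted p = 0.035), with library 2-3 at 13.9 CPM. Leaving out that library, FKl/l MHC+ 1-2, or any of FKl/l 1-2, 1-3, 2-1 and 2-2 ended the call (adjusted p up to 0.0952). It was also higher than in FKl/l MCK+ (2.16, adjusted p = 0.0239), and leaving out FKl/l MHC+ 2-3, FKl/l MCK+ 1-1 or FKl/l MCK+ 1-3 ended that call (adjusted p up to 0.0602). Of 15 receptors and co-receptors tested, only Eng, the endothelial co-receptor endoglin, was called between genotypes, while 7 were higher and 2 lower in batch 2. Eng was lower in FKl/l MHC+ than in FKl/l MCK+ (-0.27, adjusted p = 0.0209), in the comparison in which 6 of 10 endothelial markers were lower, and this call ended when library 1-1 or 2-3 of FKl/l MCK+ or library 1-2 or 2-3 of FKl/l MHC+ was left out (adjusted p up to 0.0718). Of the 6 signalling SMADs, Smad3 was lower in FKl/l MHC+ than in MHC CRE Only (medians of 22.8 and 26.9 CPM, log2 fold change -0.31, adjusted p = 0.0134). This call was lost with no batch term, with the Y-linked term and against a minimum fold of 1.2. It was also lost with only the groups compared and in batch 1 alone.

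Of 16 extracellular inhibitors and latent carriers tested, Fstl3 and Ltbp4 changed in FKl/l MHC+ against each of the other 3 genotypes. Fstl3 encodes a follistatin-like protein that binds activins and myostatin. Fstl3 had lowest, median and highest levels of 5.60, 7.48 and 10.3 CPM in FKl/l MHC+, 3.82, 3.97 and 5.30 in FKl/l, 3.70, 4.30 and 6.42 in MHC CRE Only, and 4.27, 4.79 and 5.66 in FKl/l MCK+. All FKl/l MHC+ libraries were above all FKl/l libraries and overlapped the other 2 genotypes. The log2 fold changes were 0.83 against FKl/l (adjusted p = 0.000566), 0.69 against MHC CRE Only (adjusted p = 0.00512) and 0.62 against FKl/l MCK+ (adjusted p = 0.0106), and none was lost when 1 library was left out. The calls against MHC CRE Only and FKl/l MCK+ did not pass against a minimum fold of 1.2. Nor did the former pass in batch 1 alone, or the latter in batch 2 alone. Ltbp4 encodes a protein that holds latent TGF-beta in the matrix, best known for TGF-beta 1. Its lowest, median and highest levels were 178, 218 and 244 CPM in FKl/l MHC+, against lowest levels of 248, 267 and 270.0 CPM in FKl/l, MHC CRE Only and FKl/l MCK+. Every FKl/l MHC+ library was therefore below all the other 18. Some stromal markers were lower in the same genotype, Gsn against FKl/l (-0.39, adjusted p = 0.0274) and FKl/l MCK+, and Pdgfrb against MHC CRE Only and FKl/l MCK+. Of the 10 smooth muscle and pericyte markers, 1, 0 and 1 had a log2 fold change above 0 against FKl/l, MHC CRE Only and FKl/l MCK+. Of the 10 fibroblast markers, to which Gsn belongs, 5, 1 and 2 did in the same order, so against FKl/l that list did not move as Gsn did. The part of these markers in the Ltbp4 values was not tested. The log2 fold changes of Ltbp4 in that order were -0.44, -0.48 and -0.51 (adjusted p = 0.00527, 0.00381 and 0.00201), and none was lost when 1 library was left out. However, none of these Ltbp4 calls passed against a minimum fold of 1.2. Against FKl/l neither batch alone passed. Batch 1 alone did not pass against MHC CRE Only, and batch 2 alone did not pass against FKl/l MCK+. In FKl/l MCK+ against FKl/l no gene of this list was called. Sost was called lower against MHC CRE Only (-1.18, adjusted p = 0.0428) and Chrd lower against FKl/l MCK+ (-0.66, adjusted p = 0.0486), but these calls were lost in 15 and 20 of the 24 fits without 1 library (adjusted p up to 0.109 and 0.148). Without the 3 libraries in doubt Sost was at -0.89 and was not called (adjusted p = 0.195).

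Of 11 intracellular inhibitors and corepressors, which include Fkbp1a itself, Pmepa1 was higher in both deletions against both controls (0.29, adjusted p = 0.0312), a call lost in 14 of 24 fits without 1 library (adjusted p up to 0.0744), and no gene but Fkbp1a was called in the other comparisons. Of 19 other SMAD target genes, Cdkn1a, the cell cycle inhibitor p21, was higher in FKl/l MHC+ than in MHC CRE Only (0.89, adjusted p = 0.0122) and than in FKl/l MCK+ (1.06, adjusted p = 0.0031), beside 1.29 against FKl/l (adjusted p = 0.000382). None of these Cdkn1a calls held in batch 2 alone, and that against MHC CRE Only also did not pass against a minimum fold of 1.2. Cdkn1a is also a target of other pathways. Atoh8, a BMP target, was higher in FKl/l MHC+ than in FKl/l (means of 14.8 ± 1.84 and 10.5 ± 1.36 CPM, log2 fold change 0.49, adjusted p = 0.0228). It did not pass when library 1-1, 1-2 or 2-3 of FKl/l MHC+ or library 1-2 or 2-2 of FKl/l was left out (adjusted p up to 0.0822). Atoh8 was at 12.7 ± 1.87 CPM in MHC CRE Only and 12.6 ± 2.54 in FKl/l MCK+, and FKl/l MHC+ was not called against either. The median log2 fold change of the 19 targets was 0.05 against FKl/l, -0.14 against MHC CRE Only and 0.07 against FKl/l MCK+, beside medians of all genes of -0.003, -0.02 and -0.01, and the other 17 were not called in FKl/l MHC+ against FKl/l.

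**Figure D5:**
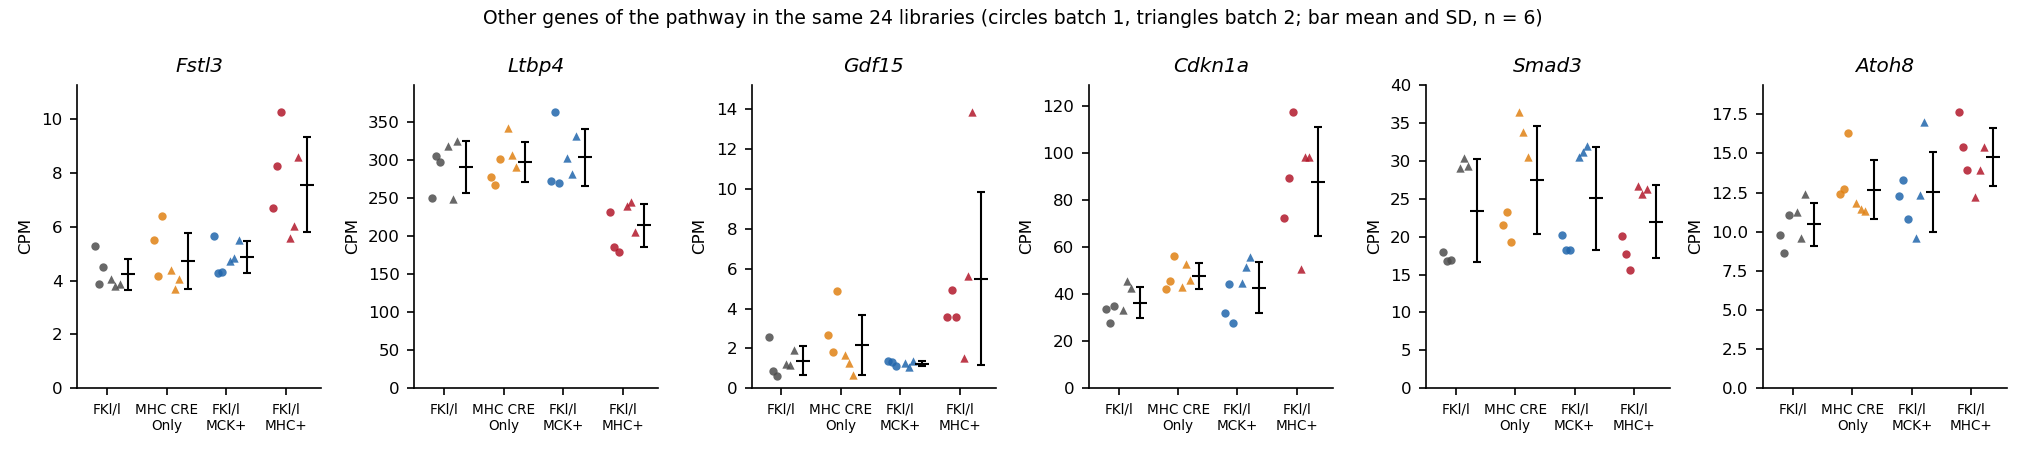
Level in CPM (vertical axes from 0) of 6 other genes of the pathway by genotype, with 1 point per library, circles for batch 1, triangles for batch 2, and the mean and SD of 6 libraries. Ltbp4 in FKl/l MHC+ (178 to 244 CPM) lies below all other libraries, and the FKl/l MHC+ spread of Gdf15 includes 1 library at 13.9 CPM.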

How the data were processed

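The authors deposited 1 table of whole-number read counts per Ensembl gene for the 24 libraries and 5 tables of their own comparisons. Per the file headers, those deposited tables hold log2 fold changes, the mean log2 level, a score (the test statistic) and p-values, raw and adjusted. Per the labels' protocols, RNA was extracted with TRIzol and the library kit keeps strand. Per the submitters' processing notes, STAR, RSEM, Trim Galore, FastQC and bcl2fastq 2.17 were used, with genome build mm10. The sources used here do not give the annotation, the strand setting or whether RSEM estimates were rounded.

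Of the 56384 rows, 3660 named by a transcript only (0.873 to 4.28% of a library's counts) were left out. None of them belongs to a gene described as a member here. Gene positions and exon lengths are from GENCODE M21 (GRCm38), promoter windows from RefSeq. CPM use library sizes scaled with TMM (trimmed mean of M values). Deposited counts were tested with the quasi-likelihood F-test of edgeR 4.0.16 (with limma 3.58.1 in R 4.3.3) after filterByExpr, in 1 robust fit of all 24 libraries with terms for genotype and batch. A gene was called at an adjusted p under 0.05 (Benjamini-Hochberg over 16018 genes, 2-sided). Errors beside log2 fold changes are standard errors, and intervals are 95%. The script was tested on simulated data. Alternatives were DESeq2 1.42.0 and its size factors, no filter, no batch term, a replicate block, a minimum fold of 1.2, only the groups compared, each batch alone, a term for Y-linked transcripts, and leaving out libraries. The alternatives for the batch difference and for Id2 by batch were chosen after the data were seen.

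The members and gene lists were chosen with earlier results of these data known. Named genes are the 10 members, the 3 genes most like the main ones, and the genes called in the pathway lists. Libraries with the same number were checked for pairing: of 36 pairs, 3 had correlated deviations above 0.1 (-0.228 to 0.151), so the numbers do not pair the libraries. No 2 libraries of a genotype agreed within counting noise (chi-square per degree of freedom at least 8.37).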

Additional observations from a re-analysis of the deposited data

Results flagged for a closer look

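In the 84 groups of 6 libraries tested for a single library far from the rest (Dixon's 95% limit), none of the 40 groups of the 10 members was marked, and 3 of the 44 groups of other pathway genes were. Chance marks about 1 in 20 such groups. Fkbp1a was at 81.8 CPM in MHC CRE Only 1-3, far below the other libraries of that genotype. Gdf15 was at 13.9 CPM in FKl/l MHC+ 2-3, far above its group, and Atoh8 at 16.3 CPM in MHC CRE Only 1-3. For Id2, the effect of MHC CRE Only against FKl/l differed between the batches by 0.93 on the log2 scale, by the interaction test given above.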

How the results depend on the processing

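With 1 library left out, the genes called ran from 5 to 11 (FKl/l MCK+ against FKl/l, 8 in the reported fit), 152 to 407 (FKl/l MHC+ against FKl/l, 274), 135 to 482 (FKl/l MHC+ against MHC CRE Only, 299), 143 to 490 (FKl/l MHC+ against FKl/l MCK+, 345), 4 to 17 (MHC CRE Only against FKl/l, 7) and 40 to 105 (both deletions against both controls, 65). Members called ran from 1 to 2 against MHC CRE Only and from 0 to 1 against FKl/l MCK+, and stayed at 0 in the other 4. In the same order of comparisons, DESeq2 called 20, 553, 591, 578, 207 and 138 genes, a fit with no batch term 5, 120, 42, 103, 4 and 32, and a minimum fold of 1.2 called 3, 42, 17, 17, 2 and 10. Batch 1 alone gave 1, 214, 78, 211, 17 and 10 genes, and batch 2 alone 7, 160, 915, 171, 79 and 108. With the Y-linked term 5, 154 and 1 genes were called in the first, the third and the fifth comparison. Without the 3 libraries in doubt it was 496 against FKl/l for FKl/l MHC+ and 4 for MHC CRE Only, which also had 15 with no filter and 4 with only the groups compared. Against MHC CRE Only, members called were 0 with no batch term, a minimum fold, batch 1 alone or the Y-linked term, and 2 with DESeq2 (Tgfb2 and Smad7) or batch 2 alone (Tgfb1 and Smad7). Against FKl/l MCK+ they were 0 with no batch term, a minimum fold or batch 1 alone, and in batch 2 alone the 1 member was Tgfb1. A replicate block by library number called 7, 226, 215, 231, 6 and 48 genes, with Tgfb2 called in both comparisons. Tgfb1 reversed in MHC CRE Only against FKl/l with the Y-linked term (-0.032) and in FKl/l MHC+ against FKl/l MCK+ in batch 1 alone (0.060). The cause of these changes was not tested, beyond the smaller number of libraries in the fits of 1 batch.

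Of 60 member values over the 6 comparisons, 45 had an unadjusted p of 0.05 or more, and 33 of those changed sign in some alternative, so their directions are not established. Depth limits Bmp2 and Bmp4 most, with as few as 41 and 69 counts in a library.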
